A study of Mus musculus with 3 samples.

Results

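The genes that write, erase and read histone marks and DNA methylation were examined in RAW 264.7 cells, an established mouse macrophage line, challenged with LPS. They were taken by gene symbol, whatever their signal, and comprised the deacetylases (Hdac), sirtuins (Sirt), lysine acetyltransferases (Kat), bromodomain genes (Brd), lysine methyltransferases (Kmt2, Setd, Ezh), arginine methyltransferases (Prmt), lysine demethylases (Kdm), DNA methyltransferases (Dnmt) and TET dioxygenases (Tet). The array carried 83 such genes on 221 probes, out of 26840 genes with a symbol and 56605 gene probes. Of the 83 genes, 2 were *Dnmt3aos* and *Dnmt3bos*, antisense RNAs named after their DNA methyltransferase neighbours. Not every other gene encodes an active enzyme, since the bromodomain genes are grouped as readers and *Dnmt3l* is catalytically inactive. Each of 3 groups had 1 single-colour (Cy3) microarray. The LPS group received 50 ng/mL of LPS, the TLR4 agonist, alone. The CRL1505 + LPS group was first kept for 24 h with *Lacticaseibacillus rhamnosus* CRL1505, and the CRL1506 + LPS group with *Lactiplantibacillus plantarum* CRL1506, each at 50000000 cells/mL, before washing and the same LPS challenge. The LPS challenge lasted 12 h by the series design, while the sample descriptions give 3 h. Macrophages were seeded at 500000 per well, and none of the 3 arrays came from cells without LPS.

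Acetyltransferases add acetyl groups to histone tails, which bromodomain proteins read, and deacetylases and sirtuins take them off. Histone methyltransferases mark lysines or arginines for activity or silencing, and demethylases reverse the lysine marks. DNA methyltransferases methylate cytosines and TET enzymes oxidise the methyl group, and in macrophages several of these enzymes are known to set how strongly inflammatory genes answer to LPS.

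The probes of 2 genes described below as lower in CRL1505 + LPS cross an intron, and their sequences are shown because they identify the transcripts measured. *Dnmt1* has a single probe, at chr9:20711973-20712341 (mm9, minus strand). Of the 5 probes of *Ezh2*, those shown are the 1 at chr6:47502445-47504139, used for the gene, and the 1 at chr6:47482047-47482942, both on the minus strand of mm9. Each is 60 bases long, while its mapped span is 369, 1695 and 896 bases, respectively.
Dnmt1 probe: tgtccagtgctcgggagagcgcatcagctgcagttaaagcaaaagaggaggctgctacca
Ezh2 probe used: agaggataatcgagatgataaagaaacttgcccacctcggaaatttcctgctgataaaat
Ezh2 second probe: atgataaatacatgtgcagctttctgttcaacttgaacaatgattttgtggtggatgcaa

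The 250 bases upstream of the annotated start are shown for *Setdb2* and *Kdm5b*, the 2 genes at least 2-fold higher in CRL1505 + LPS, as RefSeq gives them on GRCm38.p6. The *Setdb2* stretch is chr14:59440881-59441130 (minus strand) and the *Kdm5b* stretch is chr1:134559928-134560177 (plus strand). Capitals mark a match to the NF-κB consensus on either strand, and it lies 116 bases before the *Kdm5b* start. Such a match also lies 19 bases before 1 of the 4 annotated starts of *Kdm2b*, among the genes 2-fold lower with CRL1505, and is shown in a 30-base window at chr5:122988508-122988537 (minus strand).
Setdb2 upstream: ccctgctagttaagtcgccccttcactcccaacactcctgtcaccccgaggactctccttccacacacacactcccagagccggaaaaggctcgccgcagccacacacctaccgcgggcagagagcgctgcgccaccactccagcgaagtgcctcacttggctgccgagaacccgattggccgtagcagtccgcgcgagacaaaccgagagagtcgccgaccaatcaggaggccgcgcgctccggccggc
Kdm5b upstream: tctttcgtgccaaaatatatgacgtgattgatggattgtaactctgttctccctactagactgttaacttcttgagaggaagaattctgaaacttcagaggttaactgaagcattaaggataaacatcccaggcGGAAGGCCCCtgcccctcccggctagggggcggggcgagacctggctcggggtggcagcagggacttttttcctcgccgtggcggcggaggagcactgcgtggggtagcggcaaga
Kdm2b NF-κB-type match: gggagtggtggGGGAGTCTCCttaggaagt

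For 68 of the 83 genes a RefSeq promoter was at hand. The NF-κB consensus occurred within 250 bases upstream of a start in 11 of them, or 16.2%, beside 8.23% of the 27025 genes with a promoter. An E2F-type motif, searched on both strands as TTTCCCGC, TTTCGCGC, TTTGCCGC or TTTGGCGC, occurred in 4 (*Brd7*, *Dnmt1*, *Kat2a* and *Sirt4*), or 5.88%, beside 2.16%. The interferon-stimulated response element occurred in 2 (2.94%, beside 3.46%) and the CRE motif TGACGTCA in 1 (1.47%, beside 1.77%). The *Dnmt1* match begins 219 bases before 1 of its 3 annotated starts and is shown in capitals in a 30-base window at chr9:20952824-20952853 of GRCm38.p6 (minus strand). No E2F-type match stood upstream of the *Ezh2* start, and no matches overlapped in the 6 genes at least 2-fold away from LPS in CRL1505 + LPS.
Dnmt1 E2F-type match: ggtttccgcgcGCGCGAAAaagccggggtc

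Levels are given as normalised intensity, which is the processed spot signal in multiples of the 75th percentile of its array, and differences as log2 ratios between arrays. Intensities of different genes come from different probes and were not set against each other. The 75th percentile was a signal of 743.1 on the LPS array, 517.0 after CRL1505 and 697.9 after CRL1506, and between 48.5% and 55.3% of gene spots were well above background. With 1 array per group no p-value can be given. The median SD of a log2 ratio was 0.048 over repeated spots and 0.228 between probes of 1 gene for CRL1505 + LPS over LPS, and 0.043 and 0.215 for CRL1506 + LPS over LPS. Neither includes variation between cultures. The CRL1505 + LPS array was on a different slide and in a different scan run from the other two, so strain and slide cannot be told apart. All 9 macrophage markers were well above background on every array. Of 24 markers of other cell types, 8 were well above background on every array and 8 on none. Among the T cell markers, *Lck* had log2 ratios over LPS of 1.46 after CRL1505 and 0.52 after CRL1506. Those of *Cd3e* were -0.16 and 0.04, and those of *Cd4* were 0.002 and -0.26. *Cd3g* and *Cd8a* stayed at background. The part of these signals in the results was not tested.

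Most of the chromatin-modifying genes were within a narrow range of their level under LPS alone. In CRL1505 + LPS, 6 of 81 genes compared were at least 2-fold away from LPS. *Setdb2* and *Kdm5b* were higher, and *Dnmt1*, *Hdac5*, *Ezh2* and *Kdm2b* were lower. In CRL1506 + LPS only 1 of 81 was 2-fold away, and it was the antisense RNA *Dnmt3aos*. All 83 are accounted for, since *Hdac11* and *Kdm4d* exceeded background clearly on none of the arrays, *Hdac9* was so on the LPS array alone and *Dnmt3bos* on all but the CRL1506 + LPS array, and the other 79 were so on all 3.

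**Figure D1:**
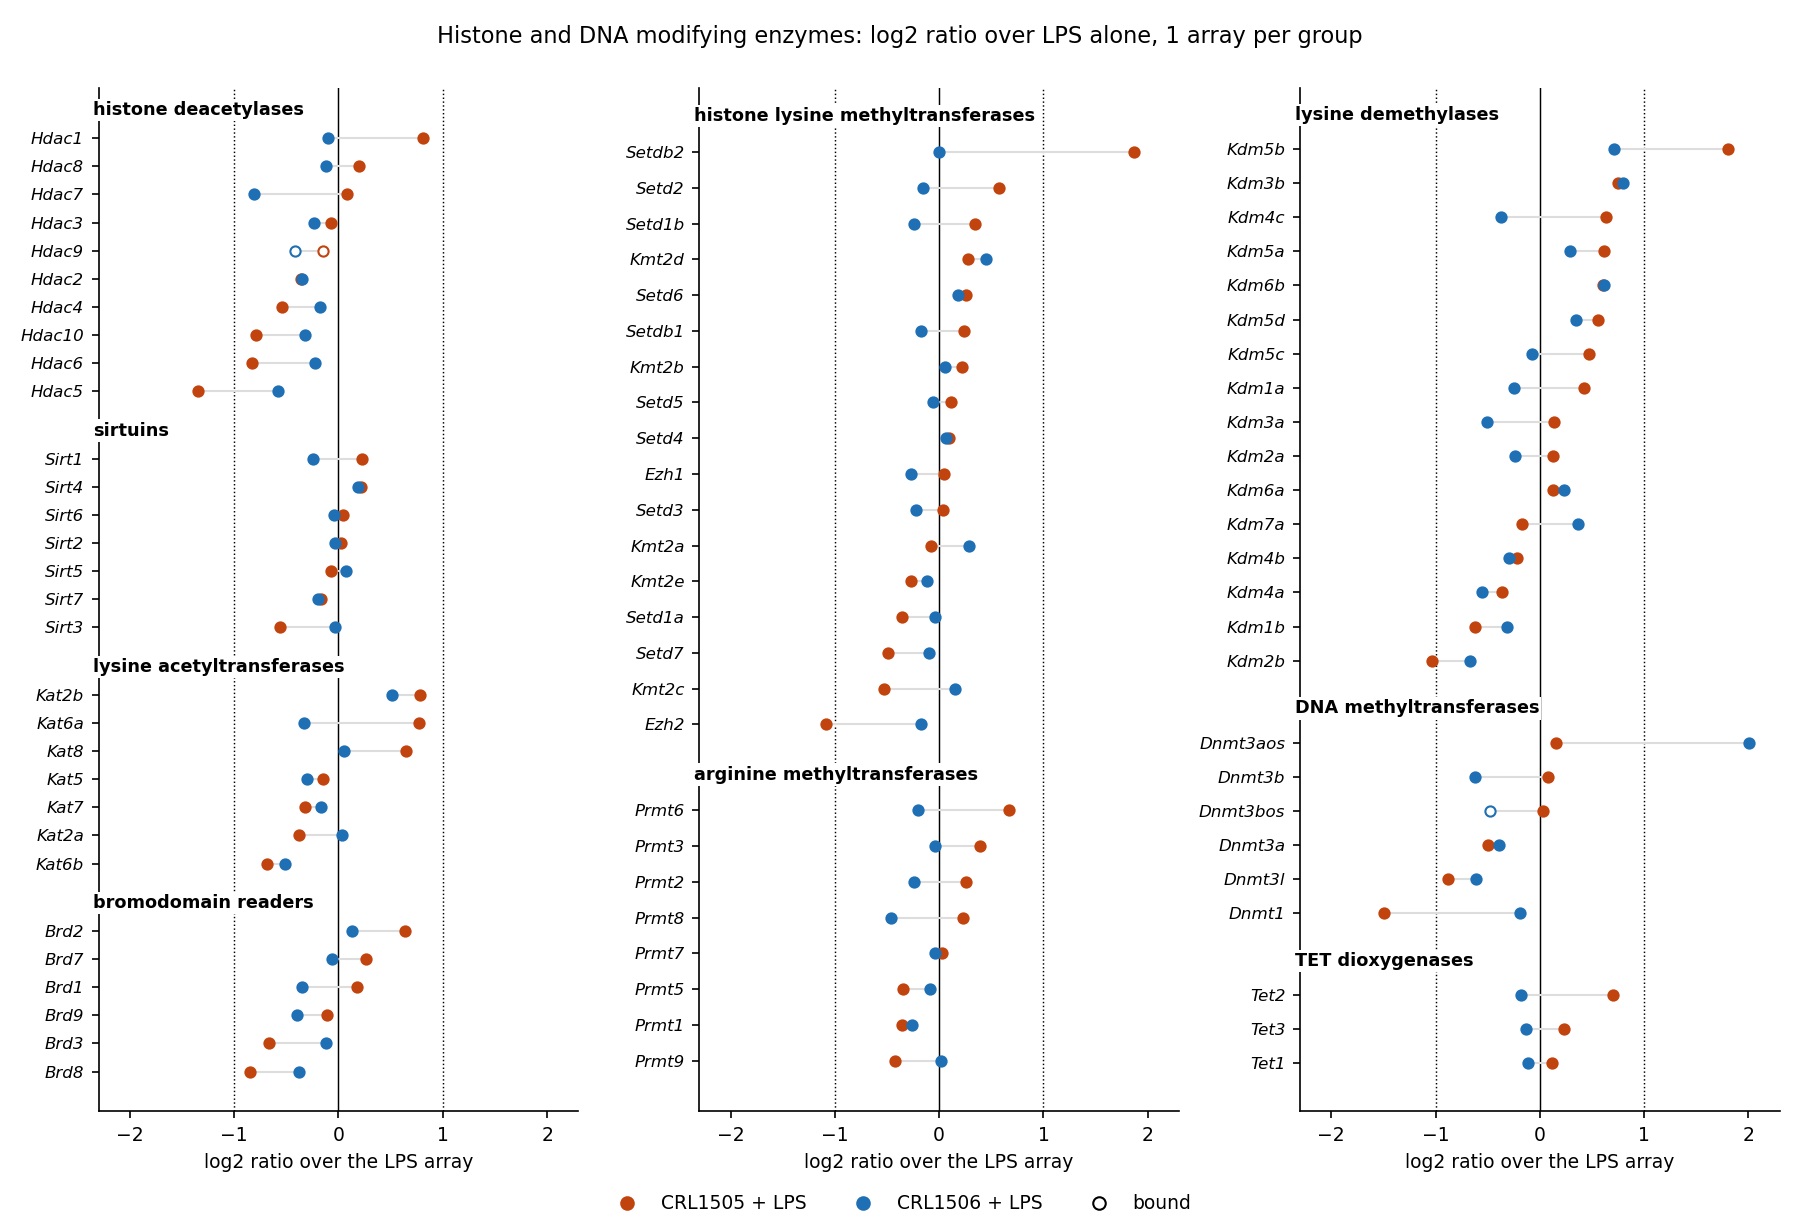
Log2 ratio over the LPS array (horizontal axis) of 80 of the 81 genes compared, ordered by role and by their ratio in CRL1505 + LPS, with 1 point per strain, open points for bounds and dotted lines at 2-fold. In CRL1505 + LPS the points run from -1.50 (*Dnmt1*) to 1.87 (*Setdb2*), and in CRL1506 + LPS from -0.81 (*Hdac7*) to 2.0 (*Dnmt3aos*).

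The 6 genes in CRL1505 + LPS were 7.41% of those compared, while 18.3% of all 15618 genes compared were at least 2-fold away from LPS, 9.92% higher and 8.41% lower. Restricting the count to genes well above background on each of the 3 arrays gave 6 of 79 beside 14.2% of genes. In CRL1506 + LPS, 1 gene was higher where 5.67% of all 16319 genes were, none was lower where 3.57% were, and 9.23% of genes were 2-fold away in either direction (5.79% of genes well above background on each array). The chromatin-modifying genes had a median log2 ratio of 0.08 after CRL1505, beside 0.01 for all genes, and of -0.15 after CRL1506, beside -0.06. Of the 81, 34 were below 0 after CRL1505 and 60 after CRL1506, beside 49.4% and 57.3% of all genes at or below 0. Their SD was 0.58, beside 0.89 for all genes, after CRL1505 and 0.38, beside 0.67, after CRL1506. A log2 ratio within 0.5 of LPS was found for 52 of 81 genes (64.2%, beside 58.0% of all genes) and for 68 of 81 (84.0%, beside 74.3%), respectively. Among genes well above background on each of the 3 arrays these gaps were smaller. The share within 0.5 was then 63.3% beside 62.4% of genes after CRL1505 and 83.5% beside 79.7% after CRL1506, and the SD was 0.59 beside 0.74 and 0.38 beside 0.52. The 2 strains share the LPS array. Of the 81 genes, 54 (66.7%, beside 62.7% of 15071 genes compared with both strains) lay farther from it in CRL1505 + LPS than in CRL1506 + LPS, and none was 2-fold away with both, as 4.43% of all genes were.

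A lower threshold of 1.5-fold took in 13 higher and 11 lower genes in CRL1505 + LPS, beside 19.0% and 17.2% of all genes, and 4 higher and 4 lower genes in CRL1506 + LPS, beside 11.7% and 9.25%. Between the strains, 14 were then higher and 6 lower with CRL1505, beside 19.0% and 17.3%. At 4-fold, none was left in CRL1505 + LPS, where 2.98% of all genes were higher and 1.54% lower. *Dnmt3aos* alone was left in CRL1506 + LPS, where 1.30% were higher and 0.870% lower. None was left between the strains, where 2.40% were higher and 0.990% lower.

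**Figure D2:**
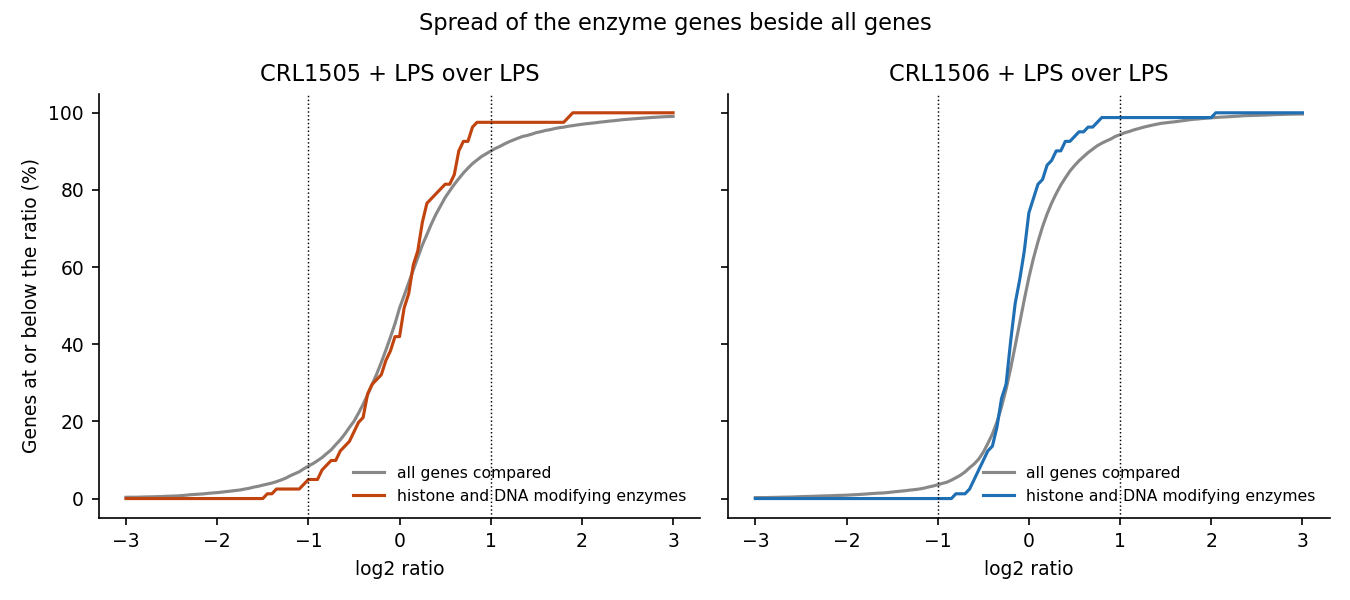
Cumulative share (vertical axis, percent) of the chromatin-modifying genes (coloured) and of all genes compared (grey) by log2 ratio over LPS (horizontal axis), with dotted lines at 2-fold. The coloured curves have SDs of 0.58 against 0.89 in CRL1505 + LPS and of 0.38 against 0.67 in CRL1506 + LPS, and over genes well above background on each array (not drawn) the SDs were 0.59 against 0.74 and 0.38 against 0.52.

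The number of genes at 2-fold depended on how the arrays were scaled. When each array was shifted by its median, all genes moved to a median log2 ratio of 0.33 in CRL1505 + LPS and 6 of the chromatin-modifying genes were higher and 2 lower. When arrays were scaled to their 8 spike-in probes, all genes moved to -0.48, and 2 were higher and 15 lower. *Setdb2*, *Kdm5b*, *Dnmt1* and *Hdac5* were 2-fold away in CRL1505 + LPS with each of 7 other normalizations, *Ezh2* with 6 and *Kdm2b* with 5. The choice of probe mattered for the direction of genes within 2-fold of LPS. Averaging over all probes of a gene in place of its brightest put 11 of 81 genes on the other side of 0 in CRL1505 + LPS (*Dnmt3a*, *Dnmt3b*, *Ezh1*, *Hdac4*, *Kdm7a*, *Prmt7*, *Setd4*, *Sirt1*, *Sirt2*, *Sirt6* and *Tet3*) and 21 of 81 in CRL1506 + LPS. In bulk RNA, a lower signal from fewer transcribing cells and from less RNA in each cell cannot be told apart.

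Among the lysine methyltransferases, *Setdb2*, which places silencing marks on lysine 9 of histone H3, had the highest ratio to LPS in CRL1505 + LPS. Its normalised intensity was 2.39 in LPS, 8.72 in CRL1505 + LPS and 2.38 in CRL1506 + LPS, a 3.65-fold difference for CRL1505 and a log2 ratio of -0.01 for CRL1506. It stood high on the CRL1505 + LPS array alone. The second RefSeq probe of *Setdb2* gave log2 ratios of 2.08 and 0.90 for the 2 strains, so the absence of a difference in CRL1506 + LPS was not shared by both probes. Another, dim probe, designed on an Ensembl transcript, gave 0.39 and 1.71. The mean over the 3 probes was 1.45 for CRL1505 and 0.87 for CRL1506.

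*Ezh2*, the catalytic subunit of Polycomb repressive complex 2, which methylates lysine 27 of histone H3, was at 4.65 in LPS, 2.18 in CRL1505 + LPS and 4.13 in CRL1506 + LPS. The CRL1505 + LPS array was the low one, by 2.13-fold (log2 ratio -1.09). Its 5 probes gave log2 ratios between -1.35 and -1.09 in CRL1505 + LPS and between -0.54 and -0.17 in CRL1506 + LPS. These probes read the same single hybridisations and are not replicates. Over the 7 other normalizations the probe used for *Ezh2* ran from -1.60 to -0.79 in CRL1505 + LPS and from -0.37 to -0.03 in CRL1506 + LPS. *Ezh1*, its paralog, was at 6.36, 6.56 and 5.29 on the LPS, CRL1505 + LPS and CRL1506 + LPS arrays, and thus close to its LPS level with CRL1505.

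The other lysine methyltransferases stayed nearer to LPS. Over all 17, log2 ratios had a median of 0.10 in CRL1505 + LPS (all genes 0.01), with 11 above 0 and 6 below, and of -0.06 in CRL1506 + LPS (all genes -0.06), with 6 above and 11 below. The direction turned with the scaling, since between 2 and 13 were above 0 in CRL1505 + LPS over the 7 other normalizations, with medians from -0.41 to 0.39. *Kmt2a* and *Kmt2b* methylate lysine 4 of histone H3 at promoters. *Kmt2a* was at 1.62 in LPS, 1.53 in CRL1505 + LPS and 1.98 in CRL1506 + LPS, and *Kmt2b* at 3.16, 3.68 and 3.28. *Setd2*, which methylates lysine 36 in transcribed genes, was at 5.32, 7.93 and 4.80, highest on the CRL1505 + LPS array by 1.49-fold over LPS. *Setd7* was at 1.88, 1.34 and 1.76, and *Setdb1*, the relative of *Setdb2* that also acts on lysine 9, at 0.773, 0.912 and 0.685. *Kmt2c* was at 0.981, 0.680 and 1.09. None of these reached 2-fold with either strain, except *Kmt2c* with spike-in scaling in CRL1505 + LPS.

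The demethylases included the other gene at least 2-fold higher. *Kdm5b* removes methyl groups from lysine 4 of histone H3. Its normalised intensity was 0.519 in LPS, 1.81 in CRL1505 + LPS and 0.849 in CRL1506 + LPS. Both strains were above LPS, CRL1505 by 3.49-fold and CRL1506 by 1.63-fold. Of its 5 probes, 2 were well above background on the LPS and CRL1505 + LPS arrays, and gave log2 ratios of 1.80 and 2.01 in CRL1505 + LPS and of 0.71 and 0.36 in CRL1506 + LPS. The other genes of this family lay in the same direction with smaller differences in CRL1505 + LPS. *Kdm5a* was at 3.12, 4.78 and 3.80 in LPS, CRL1505 + LPS and CRL1506 + LPS, and *Kdm5c* at 6.69, 9.26 and 6.37. For *Kdm5d* the log2 ratios were 0.56 with CRL1505 and 0.35 with CRL1506.

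*Kdm2b* is a lysine 36 demethylase that also recruits a Polycomb complex to unmethylated CpG islands. It was at 3.75 in LPS, 1.83 in CRL1505 + LPS and 2.35 in CRL1506 + LPS, and was therefore lower with both strains, by 2.05-fold and 1.60-fold. It lay just past the threshold in CRL1505 + LPS, and the second measured probe gave a log2 ratio of -0.90 beside -1.04. *Kdm6b*, the inflammation-induced demethylase of lysine 27, was at 1.13, 1.73 and 1.74, above LPS by about the same amount with CRL1505 (log2 ratio 0.61) and CRL1506 (0.62). *Kdm6a*, which acts on the same mark, was at 0.153, 0.167 and 0.180. *Kdm1a*, a subunit of the CoREST corepressor, was at 7.29, 9.76 and 6.13. *Kdm4a*, a lysine 9 and 36 demethylase, was at 11.6, 9.04 and 7.91 and so below LPS with both strains. Over the 16 demethylases compared, 11 had a log2 ratio above 0 in CRL1505 + LPS (median 0.28, all genes 0.01) and 7 in CRL1506 + LPS (median -0.15). With spike-in scaling 6 were above 0 in CRL1505 + LPS.

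Of the deacetylases, *Hdac5* was the 1 at least 2-fold from LPS. It is a class IIa enzyme that shuttles between cytoplasm and nucleus. Its normalised intensity was 9.25 in LPS, 3.62 in CRL1505 + LPS and 6.17 in CRL1506 + LPS, lower by 2.55-fold and 1.5-fold, on the single probe that the array has for it. Of the 4 class IIa genes, 3 were below LPS with CRL1505 and all 4 with CRL1506. *Hdac4* was at 0.783, 0.539 and 0.692 on the LPS, CRL1505 + LPS and CRL1506 + LPS arrays. The 3 *Hdac4* probes well above background on both arrays gave log2 ratios between -0.62 and -0.54 in CRL1505 + LPS. Its mean over probes, which also takes in a probe measured only as a bound, was 0.40 there. *Hdac7* was at 0.793, 0.839 and 0.452, and was the lowest ratio of all the chromatin-modifying genes in CRL1506 + LPS (log2 ratio -0.81). *Hdac9* was at 0.0634 in LPS, on a spot of uneven signal, and not well above background in CRL1505 + LPS or CRL1506 + LPS, so that it was at least 1.11-fold and at least 1.34-fold lower.

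*Hdac1*, a class I enzyme of the NuRD, Sin3 and CoREST corepressors, went the other way from *Hdac5* in CRL1505 + LPS. It was at 28.0 in LPS, 49.3 in CRL1505 + LPS and 26.2 in CRL1506 + LPS, and all 3 of its probes were above LPS in CRL1505 + LPS, with log2 ratios between 0.60 and 0.81, though 1 of these is placed by the array design on chromosome 17 and not on chromosome 4 with the others. *Hdac2*, its close paralog, was at 0.239, 0.186 and 0.188, and *Hdac3*, the enzyme of the NCoR corepressor, at 1.0, 0.952 and 0.852. Neither followed *Hdac1*. *Hdac6*, a class IIb tubulin deacetylase, was at 2.45, 1.37 and 2.10, and *Hdac10*, of the same class, at 2.90, 1.68 and 2.33. Both were lower in CRL1505 + LPS, with log2 ratios of -0.83 and -0.79. *Hdac11* stayed at background on all 3 arrays. In CRL1506 + LPS all 10 deacetylases compared had a log2 ratio below 0, *Hdac9* as a bound, beside 57.3% of all genes at or below 0. These ran from -0.81 to -0.10 with a median of -0.27, beside -0.06 for all genes. Cyclic loess put *Hdac1* above 0 there, and the mean over probes *Hdac1* and *Hdac8*. In CRL1505 + LPS 7 of 10 were below 0, with a median of -0.25, beside 49.4% of all genes at or below 0. Over the 7 other normalizations this count ran from 5 to 9.

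The sirtuins, NAD-dependent deacylases, stayed near LPS. In CRL1505 + LPS the log2 ratios of the brightest probes ran from -0.57 (*Sirt3*, a mitochondrial sirtuin) to 0.23 (*Sirt1*), and in CRL1506 + LPS from -0.25 (*Sirt1*) to 0.18 (*Sirt4*). *Sirt1*, which deacetylates histones and the NF-κB subunit RelA, was at 2.62 in LPS, 3.06 in CRL1505 + LPS and 2.21 in CRL1506 + LPS. *Sirt2* was at 2.64, 2.69 and 2.59, and *Sirt6* at 1.37, 1.42 and 1.33. The arrays were nearly level for the brightest probes of *Sirt2* and *Sirt6*, but the directions of *Sirt1* and *Sirt6* in CRL1505 + LPS are uncertain, since a second, dimmer probe gave log2 ratios of -0.86 and -0.56 there. None of the 7 sirtuins was 2-fold away with either strain, except *Sirt3* with spike-in scaling in CRL1505 + LPS.

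Among the lysine acetyltransferases, *Kat6a*, the catalytic subunit of the MOZ complex, was at 2.31 in LPS, 3.94 in CRL1505 + LPS and 1.83 in CRL1506 + LPS. With this probe it was not 2-fold from LPS with either strain, but the strains lay on opposite sides and differed by 2.15-fold. The mean over probes of *Kat6a* was 1.26 with CRL1505, past the threshold, and 0.09 with CRL1506, and the median shift put CRL1505 at 1.07. A second, dimmer probe of *Kat6a* gave log2 ratios of 1.75 and 0.51 over LPS. *Kat2b*, a coactivator known as PCAF, was at 0.223, 0.384 and 0.319, and above LPS with both strains. *Kat2a*, its paralog, was at 4.35, 3.34 and 4.44, and thus lower with CRL1505. *Kat5* (Tip60) was at 7.26, 6.53 and 5.88, while *Kat8*, which acetylates lysine 16 of histone H4, was at 1.59, 2.50 and 1.65. The second probe of *Kat8* gave -0.27 in CRL1505 + LPS beside 0.65 for the probe used, so its direction there is uncertain. Over the 7 genes, the median log2 ratio was -0.15 with CRL1505 and -0.17 with CRL1506.

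*Brd2*, a BET protein that binds acetylated histones, was at 43.6 in LPS, 67.9 in CRL1505 + LPS and 47.5 in CRL1506 + LPS. It stood above LPS on the CRL1505 + LPS array by 1.56-fold. All 3 of its probes were above LPS there, from 0.43 to 2.77 on the log2 scale. *Brd8* lay on the other side, with a log2 ratio of -0.85 in CRL1505 + LPS. With the brightest probe, none of the bromodomain genes was 2-fold away with either strain. The mean over probes put *Brd2* at 1.28 on the log2 scale in CRL1505 + LPS, past the threshold, and spike-in scaling put *Brd3* and *Brd8* at least 2-fold lower there.

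Arginine methyltransferases also stayed within 2-fold. *Prmt1*, which deposits most asymmetric dimethylarginine, was at 50.3 in LPS, 39.3 in CRL1505 + LPS and 42.0 in CRL1506 + LPS. *Prmt5*, the main symmetric enzyme, was at 4.66, 3.67 and 4.38. Both were a little lower with each strain. *Prmt2* was at 6.13, 7.32 and 5.20. The highest of the 8 in CRL1505 + LPS was *Prmt6* (log2 ratio 0.67) and the lowest *Prmt9* (-0.43).

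*Dnmt1*, which copies DNA methylation onto newly replicated strands, was the lowest of all the chromatin-modifying genes in CRL1505 + LPS. Its normalised intensity was 1.79 in LPS, 0.634 in CRL1505 + LPS and 1.56 in CRL1506 + LPS, so that it was 2.82-fold lower with CRL1505 and 1.14-fold lower with CRL1506. The CRL1505 + LPS array stood apart from the other two. The de novo enzymes lay closer to LPS. *Dnmt3a* was at 3.61, 2.56 and 2.76. Its mean over probes was 0.81 in CRL1505 + LPS, on the log2 scale, beside -0.50 for the probe used, and 1 of its probes at background in LPS read 0.513 after CRL1505. *Dnmt3b* was at 1.82, 1.91 and 1.18 in LPS, CRL1505 + LPS and CRL1506 + LPS. *Dnmt3l*, the catalytically inactive cofactor, was at 6.96, 3.79 and 4.55, with log2 ratios of -0.88 and -0.62.

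The antisense RNA *Dnmt3aos* was at 0.128 in LPS, 0.142 in CRL1505 + LPS and 0.513 in CRL1506 + LPS, and its log2 ratio of 2.0 was the highest in CRL1506 + LPS. Its spots in LPS and CRL1506 + LPS were uneven, with a mean pixel signal above the median one by 0.26 and 0.55 on the log2 scale. No value remained when uneven spots were left out, and the deposited table gave a log2 ratio of 0.97. *Dnmt3bos* was at 0.0658 and 0.0674 in LPS and CRL1505 + LPS and not well above background in CRL1506 + LPS, at least 1.39-fold below LPS.

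The TET enzymes lay on different sides of LPS with the 2 strains. *Tet2*, which restrains *Il6* in macrophages, was at 6.72 in LPS, 10.9 in CRL1505 + LPS and 5.91 in CRL1506 + LPS. *Tet1* was at 0.0905, 0.0984 and 0.0835, and *Tet3* at 0.232, 0.272 and 0.211. *Tet1* stood close to the limit of detection, since the dimmest detected signals of these arrays were 0.0448, 0.0573 and 0.0474. All 3 genes had log2 ratios above 0 with CRL1505 (0.12 to 0.70), although only *Tet2* did with spike-in scaling and *Tet3* did not as the mean over its probes. All 3 were below 0 with CRL1506 (-0.19 to -0.12), although *Tet2* and *Tet3* were above 0 as the mean over their probes. None was 2-fold away.

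**Figure D3:**
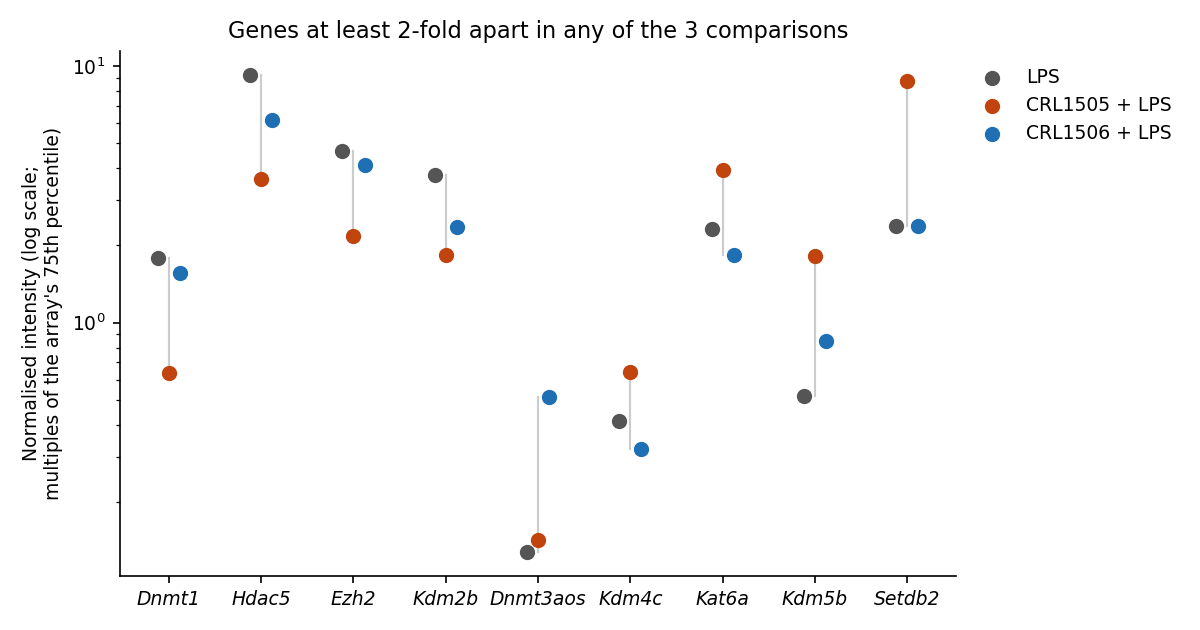
Normalised intensity (vertical axis, log scale, in multiples of the 75th percentile of the array) on each of the 3 arrays for the 9 genes at least 2-fold apart in any comparison, with 1 point per array. The CRL1505 + LPS point lies lowest for *Dnmt1* (0.634), *Hdac5* (3.62), *Ezh2* (2.18) and *Kdm2b* (1.83) and highest for *Setdb2* (8.72), *Kdm5b* (1.81), *Kat6a* (3.94) and *Kdm4c* (0.645).

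When the strains were set against each other, 4 of 80 genes were at least 2-fold higher in CRL1505 + LPS than in CRL1506 + LPS, where 8.98% of all genes were, and 2 were lower, where 7.45% of all genes were. Either way, 16.4% of all genes were 2-fold apart, and 12.9% of those well above background on each array. The higher ones were *Setdb2* (log2 ratio 1.87), *Kat6a* (1.10), *Kdm5b* (1.10) and *Kdm4c* (1.0), the last a lysine 9 demethylase at 0.416 in LPS, 0.645 in CRL1505 + LPS and 0.322 in CRL1506 + LPS. The lower ones were *Dnmt1* (-1.30) and *Dnmt3aos* (-1.85). Just inside the threshold lay *Ezh2*, with -0.92, and *Hdac1*, with 0.91. Scaling moved these counts widely, to 19 higher and 1 lower with the median shift and to 1 higher and 5 lower with spike-in scaling. *Setdb2* was higher with each of the 7 other normalizations while its mean over probes was 0.58. Its dim probe on an Ensembl transcript gave -1.31 between the strains, the opposite direction. *Kat6a*, *Kdm5b* and *Kdm4c* were each 2-fold higher with 3 of the 7, and their means over probes were 1.17, 0.88 and 0.77. Another probe of *Kdm5b* gave -0.11 between the strains, and another of *Kdm4c* 0.53. *Dnmt1* and *Dnmt3aos* were each 2-fold lower with 6 of the 7.

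**Figure D4:**
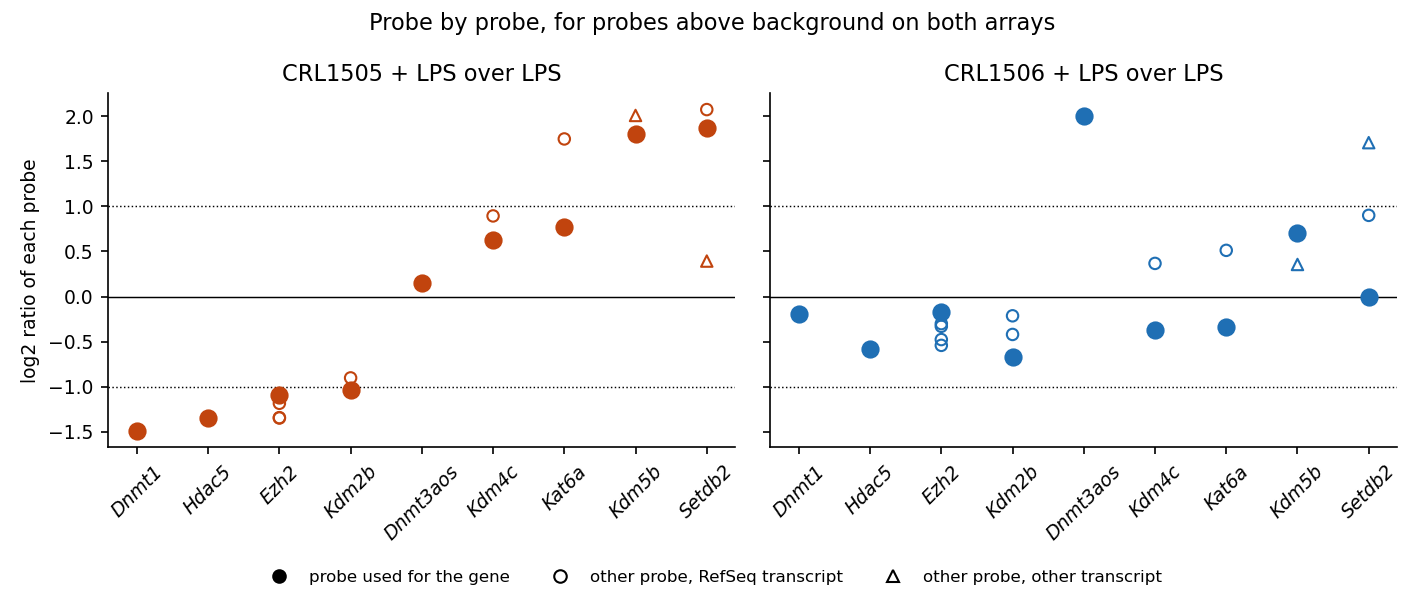
Log2 ratio over LPS (vertical axis) of every probe well above background on both arrays, for the 9 genes at least 2-fold apart in any comparison, with large filled points for the probe used, small open circles for other RefSeq probes and triangles for probes with accessions outside RefSeq. The 5 *Ezh2* probes lie between -1.35 and -1.09 in CRL1505 + LPS, while the 3 *Setdb2* probes spread from 0.39 to 2.08.

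Like *Dnmt1*, *Ezh2*, *Hdac5* and *Kdm2b*, genes known to be expressed with DNA replication were lower in CRL1505 + LPS. Of 12 such genes, 10 were at least 2-fold lower, with a median log2 ratio of -1.35 (all genes 0.01), from -2.70 for *Rrm2*, a ribonucleotide reductase subunit, to -0.64 for *Pcna*, the polymerase clamp. In CRL1506 + LPS all 12 were below LPS by less than 2-fold, with a median of -0.43 (all genes -0.06). All 12 were below 0 with both strains under each of the 7 other normalizations, where between 6 and 12 were at least 2-fold lower with CRL1505. The proliferation marker *Mki67* was at 44.8 in LPS, 19.6 in CRL1505 + LPS and 37.6 in CRL1506 + LPS. The part of cell division in the values of *Dnmt1* and *Ezh2* was not tested.

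Chromatin genes that the symbol pattern does not take were also mostly within 2-fold of LPS. Of 74 compared, 1 was at least 2-fold higher (*Nsd3*, a lysine 36 methyltransferase, log2 ratio 1.06) and 4 were at least 2-fold lower in CRL1505 + LPS, with a median of -0.04, and none was 2-fold away in CRL1506 + LPS, with a median of -0.16. The shares of all genes were 9.92% higher and 8.41% lower in CRL1505 + LPS, and 5.67% and 3.57% in CRL1506 + LPS. Over the 7 other normalizations, between 0 and 5 were higher and between 3 and 14 lower with CRL1505. *Uhrf1*, which brings *Dnmt1* protein to hemimethylated DNA, was at 32.9 in LPS, 9.95 in CRL1505 + LPS and 25.4 in CRL1506 + LPS. *Phf19*, an accessory subunit of the Polycomb complex of *Ezh2*, was at 3.87, 0.838 and 2.09. Both were lower with CRL1505, with log2 ratios of -1.73 and -2.21, as were *Kmt5c* (-1.51) and *Smyd4* (-1.41). The core subunits *Eed* and *Suz12* were not, with log2 ratios of -0.10 and 0.16. Between the strains, 4 of the 74 were at least 2-fold higher with CRL1505 and 5 lower, beside 8.98% and 7.45% of all genes. These counts ran from 1 to 11 and from 2 to 8 over the 7 other normalizations. The widest differences were those of *Kdm8*, at 0.135 in LPS, 0.0696 in CRL1505 + LPS and 0.257 in CRL1506 + LPS (log2 ratio -1.88), and of *Mbd1*, a reader of methylated DNA, at 11.8, 23.0 and 6.63 (log2 ratio 1.80). The dimmest detected signal of the CRL1505 + LPS array was 0.0573, so *Kdm8* and *Smyd4* (0.0791 there) stood close to the limit of detection.

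**Figure D5:**
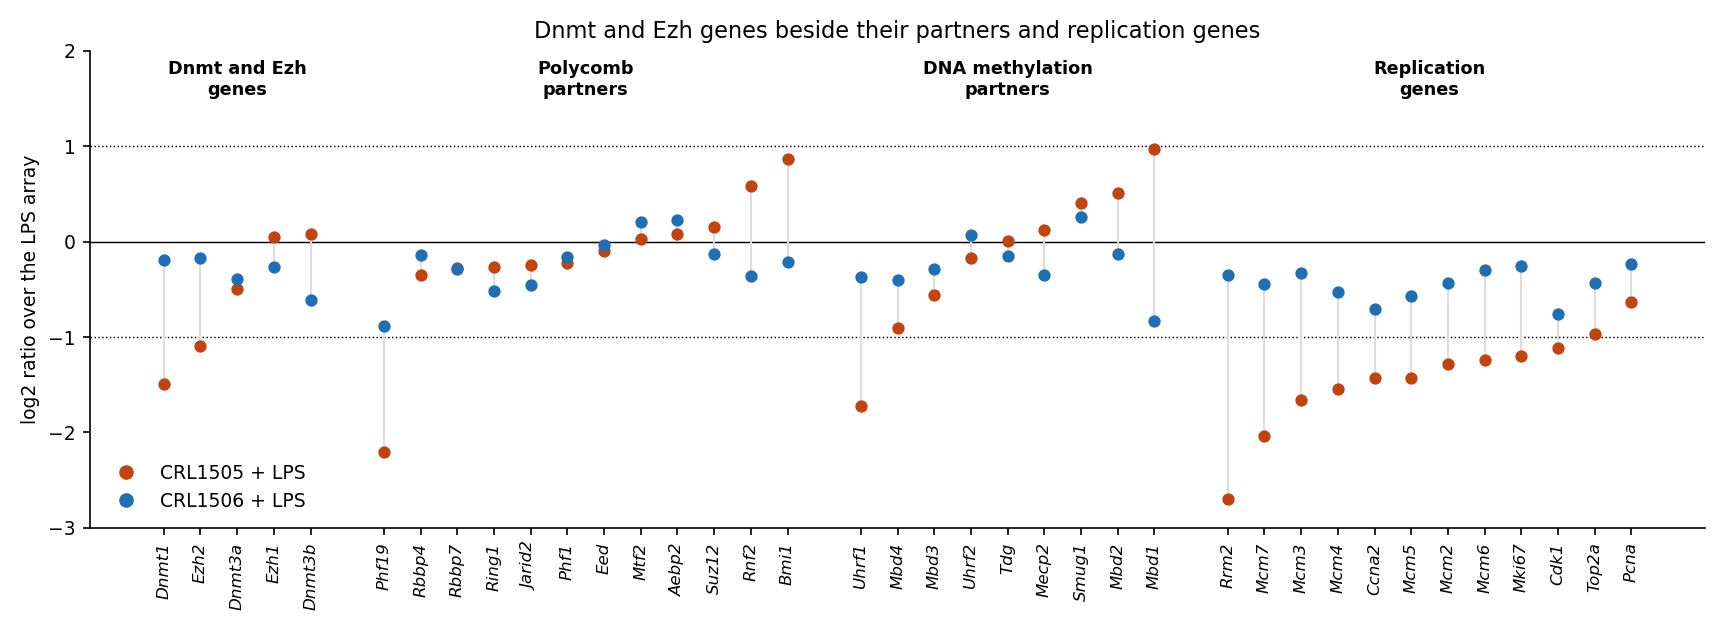
Log2 ratio over LPS (vertical axis) of the Dnmt and Ezh genes, of their Polycomb and DNA methylation partners and of 12 replication genes, with 1 point per strain and dotted lines at 2-fold. The replication genes run from -2.70 to -0.64 in CRL1505 + LPS and stay above -1 in CRL1506 + LPS. In CRL1505 + LPS *Dnmt1* lies at -1.50 and *Ezh2* at -1.09.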

How the data were processed

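RNA of RAW 264.7 cells had been hybridised to SurePrint G3 Mouse GE 8x60K arrays, 1 per group. Per the file headers, the authors deposited Feature Extraction 12.0.3.1 output, whose processed signal is an intensity with background subtracted and no normalization between arrays. They also deposited a table of normalized log2 values, with the same median of 6.86 on each array, which was used as an alternative. How it was normalized is not given in the sources used here beyond the name of the GeneSpring software. Probes carry the mm9 positions of the array design, while upstream sequences come from RefSeq on GRCm38.p6.

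Log2 processed signals were shifted by the 75th percentile of gene spots. Outlier spots were left out (241 to 467 per array, none of the 83 genes), none of the 83 genes had a saturated spot, and repeated spots were averaged. A gene was represented by its brightest probe over the arrays. Where 1 side was not well above background, its value was replaced by the dimmest detected signal of that array unless it was itself brighter, and the ratio is a bound. Genes were counted at 2-fold from the LPS array by fold alone. The study's methods also use 2-fold, but against unstimulated cells and together with a p-value. No test was run, since none of the groups has a replicate. The number of arrays limits the precision, and repeated spots and probes describe single hybridisations.

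The totals over the 83 genes include 1 gene whose own values are not reported here. Values on each array are given for genes at 2-fold in any comparison and for a list of genes set by symbol. The genes and lists were chosen with earlier results of these data known. There were 14 alternatives: 7 normalizations, 2 thresholds, and changes of filter, probe averaging and spot removal. Python 3.11.15, pandas 2.3.3, NumPy 2.4.6, R 4.3.3 and limma 3.58.1 (normexp, quantile, cyclic loess) were used. Data were simulated for CRL1505 + LPS over LPS, with 198 changed genes among 15777 compared and the between-probe SD as noise. Of genes changed 4-fold 93.9% were called, of those changed 3-fold 88.0%, and of 15579 unchanged genes 0. With noise this small beside the 2-fold threshold, few false calls could arise. The noise held no variation between cultures or slides, so the shares do not measure false calls from these.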

Additional observations from a re-analysis of the deposited data

How the results depend on the processing

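With 1 array per group, no replicate could be left out. No paired analysis was possible because each group has a single array. In CRL1505 + LPS over LPS, the count of higher genes went from 2 to 6 with the median shift, 4 with the mean over probes, 13 at a 1.5-fold threshold and 0 at a 4-fold threshold. That of lower genes went from 4 to 2 with the median shift, 15 with spike-in scaling, 11 at 1.5-fold and 0 at 4-fold. In CRL1506 + LPS over LPS, the count of higher genes went from 1 to 0 with the deposited table and without uneven spots, and to 4 at 1.5-fold. That of lower genes went from 0 to 1 with the median shift (*Hdac7*), 2 without a filter on dim probes and 4 at 1.5-fold. Between the strains, the count of higher genes went from 4 to 19 with the median shift, 1 with spike-in scaling, with the 75th percentile of detected probes and with the deposited table, 2 with normexp and with the mean over probes, 14 at 1.5-fold and 0 at 4-fold. That of lower genes went from 2 to 1 with the median shift, the deposited table and without uneven spots, 5 with spike-in scaling, 6 at 1.5-fold and 0 at 4-fold. The cause of these changes was not tested beyond the construction of the settings. Taken relative to all genes, the median of the chromatin-modifying genes in CRL1505 + LPS stayed between -0.06 and 0.07 under every alternative that gives one. No gene at 2-fold in a comparison changed its direction in it under any alternative that gave it a value. Probes near background, such as those of *Hdac9*, *Dnmt3bos* and *Dnmt3aos*, limit what can be said of these genes.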

Other observations

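For 18 of the chromatin-modifying genes, a probe with a RefSeq accession and a probe with another accession were well above background on all arrays. Whether the accessions name different transcripts was not checked. In CRL1506 + LPS over LPS, the probe with the other accession had the higher log2 ratio in 16 of the 18 genes (88.9%, beside 71.7% of 1975 genes with such a pair), with a median difference of 0.71 beside 0.37 for all such genes. It was at least 2-fold higher in 8 of 18 (44.4%, beside 27.2%). The widest gaps were those of *Tet2*, whose RefSeq probe gave -0.19 and whose other probe gave 2.28, and of *Brd1*, with -0.35 and 1.78. For *Setd3* the values were -0.22 and 1.58. The probe with the other accession was the dimmer one in 17 of the 18 genes. In CRL1505 + LPS over LPS it had the higher ratio in 11 of 18 (61.1%, beside 48.8% of 1976 genes), with a median difference of 0.18 beside -0.02.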
